A study of Mus musculus with 2 samples.

Results

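The 9 genes described here make, break down or sense prostaglandins, and were taken by name from the 49492 genes of a bulk RNA-seq count table of cultured mouse mammary basal cells. They are Pla2g4a, Ptgs1, Ptgs2, Ptges, Ptges2, Ptges3, Hpgd, Ptger2 and Ptger4, and all 9 had at least 10 counts summed over both libraries. Basal cells (CD24+CD29hi, with CD45+, CD31+ and TER119+ cells gated out) were sorted from mammary glands of wild-type adult females, aged 8 to 10 weeks by the general methods of the study. They were grown as 3D colonies/organoids in matrix gel for 10 days, in medium with EGF and ITS. The control library came from cells with no further treatment and the TNF-α library from cells given mouse TNF-α, an inflammatory cytokine, at 10 ng/mL. There was 1 library of each kind, so no difference below has a replicate check, and whether animals were pooled is not stated. The question was which prostaglandin genes differ in transcript level when basal cells grow with TNF-α.

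Prostaglandins are short-lived lipid signals. Phospholipases free arachidonic acid from membranes, the cyclooxygenases Ptgs1 (COX-1) and Ptgs2 (COX-2) convert it to prostaglandin H2, and terminal synthases turn that into prostaglandin E2 (PGE2) or its relatives. PGE2 acts on the receptors EP1 to EP4, and Hpgd starts its breakdown by oxidation. In many epithelia inflammatory cytokines raise Ptgs2 and Ptges together, and PGE2 is known for its part in inflammation, epithelial growth and mammary tumours.

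The counts summed to 44462275 in the control and 53487087 in the TNF-α library, and after TMM scaling the TNF-α library counted as 1.20 times the control. In counts per 1e6 scaled counts (CPM), a count of 10 was worth 0.224 CPM in the control and 0.187 CPM with TNF-α. Basal keratin genes were high in both libraries (Krt14 at 2933 and 2771 CPM per kb of exon), and the luminal keratin gene Krt8 was at 672 and 627 CPM per kb. Intervals printed below are 95% intervals for counting error alone. Reads that PCR copied from 1 molecule cannot be recognised here, as the counts carry no molecular identifiers. If the 2 ends of each read pair were counted singly, the intervals from halved counts apply, and these are given where they change whether an interval holds no change.

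Promoter sequences are shown for the 2 members that lay past 2-fold, Ptges and Hpgd, and for Ptgs2, the inducible cyclooxygenase. RefSeq windows on GRCm38.p6 matched 9 of 9 members, with 10 windows in all since Pla2g4a has 2. Each sequence is the 250 bases before the RefSeq start, 5′ to 3′ on the strand of the gene, and capitals mark motif matches on either strand. The Ptges stretch lies at chr2:30903298-30903547 on the minus strand, that of Ptgs2 at chr1:150099781-150100030 and that of Hpgd at chr8:56294302-56294551, both on the plus strand. The RefSeq start of Ptges lies inside the longer span that the deposited table gives the gene.
Ptges: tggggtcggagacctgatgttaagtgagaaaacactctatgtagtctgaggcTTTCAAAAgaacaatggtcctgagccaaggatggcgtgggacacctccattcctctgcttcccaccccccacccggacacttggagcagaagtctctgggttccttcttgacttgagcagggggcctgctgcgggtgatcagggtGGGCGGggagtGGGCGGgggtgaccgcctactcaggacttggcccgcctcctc
Ptgs2: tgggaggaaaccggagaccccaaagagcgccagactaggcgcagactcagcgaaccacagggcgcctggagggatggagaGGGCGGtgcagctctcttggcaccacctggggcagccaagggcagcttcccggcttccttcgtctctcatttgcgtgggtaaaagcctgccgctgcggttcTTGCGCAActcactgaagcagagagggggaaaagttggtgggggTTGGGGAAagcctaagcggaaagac
Hpgd: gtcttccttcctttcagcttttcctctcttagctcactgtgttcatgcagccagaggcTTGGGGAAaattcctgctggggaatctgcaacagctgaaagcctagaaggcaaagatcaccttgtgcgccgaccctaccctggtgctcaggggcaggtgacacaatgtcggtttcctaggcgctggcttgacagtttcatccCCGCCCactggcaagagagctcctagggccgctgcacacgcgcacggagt

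The whole windows, 250 bases before to 50 after the start, were searched on both strands for the TATA box TATAAA, the AP-1 motif TGANTCA, the CREB site core CGTCA, the C/EBP motif TTNNGNAA, the E-box CACGTG and the NF-κB consensus. GGGCGG (a GC box) was added after the sequences had been seen. Ptges held TTNNGNAA at 198 to 191 bases before its start and GGGCGG at 53 to 48 and at 42 to 37 bases before it. Of all 32851 windows, 35.7% held GGGCGG. The Ptgs2 window held TTNNGNAA at 69 to 62 and at 25 to 18 bases before the start, a motif found in 40.7% of windows, and GGGCGG at 170 to 165 bases before it. At 14 to 22 bases after the RefSeq start, Ptgs2 held CGTCA (20.8% of windows) and CACGTG (7.15% of windows), which overlap. The deposited table gives Ptgs2 the same start, and whether transcripts begin there in these cells was not tested. Hpgd held TTNNGNAA at 192 to 185 and GGGCGG at 50 to 45 bases before its start, and TATAAA (13.6% of windows) at 5 to 10 bases after it. The deposited table starts Hpgd 33 bases further on, and counted from there TATAAA lies 29 to 24 bases before the start. These 2 stretches of 30 bases, at chr1:150100034-150100063 and chr8:56294546-56294575 on the plus strand, read as follows.
Ptgs2 RefSeq start: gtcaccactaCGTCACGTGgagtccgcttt
Hpgd RefSeq start: cggagtgggcTATAAAagctgctgcggcgt

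The NF-κB consensus (8.46% of windows) matched in 1 of the 9 genes, Ptges3, at 87 to 78 bases before its start, and TGANTCA (7.81% of windows) matched in 0 of them. A match is a string of letters, not a binding site, and sites outside these windows were not searched.

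Between the 2 libraries, Ptges stood highest of the 9 genes and Hpgd lowest, and these were the members past 2-fold. Ptges was 6.66-fold higher with TNF-α and Hpgd was 3.17-fold lower. The other 7 members lay within 2-fold, with log2 ratios from 0.11 to 0.54, and 8 of the 9 ratios were above 0. Of the 20771 genes with at least 10 counts, 8.56% were more than 2-fold higher and 6.62% more than 2-fold lower, beside 1 and 1 of the 9 members. Of the 13609 genes with at least 200 counts, 4.01% were more than 2-fold higher and 2.87% more than 2-fold lower. The median log2 ratio was 0.22 over the members and 0.0038 over all genes tested, of which 50.6% lay above 0. Counting intervals lay wholly above no change for 5 members and wholly below for 1, where 28.9% and 27.8% of all genes did so. With halved counts 4 members lay wholly above and 1 wholly below. The shares of all genes with halved counts were not computed, so these numbers have no background beside them.

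**Figure D1:**
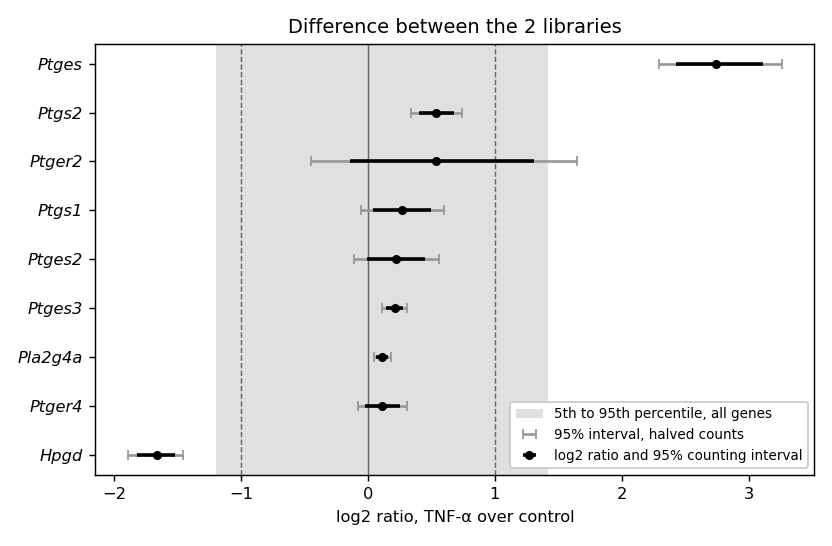
log2 ratio of TNF-α to control for each of the 9 genes (x axis), with 95% counting intervals from the deposited counts (black) and from halved counts (grey), the 5th to 95th percentile of all genes (shaded, -1.20 to 1.42) and 2-fold in dashed lines. Ptges at 2.74 and Hpgd at -1.66 lie outside the dashed lines and the shaded range, and the points of the other 7 genes lie inside both.

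**Figure D2:**
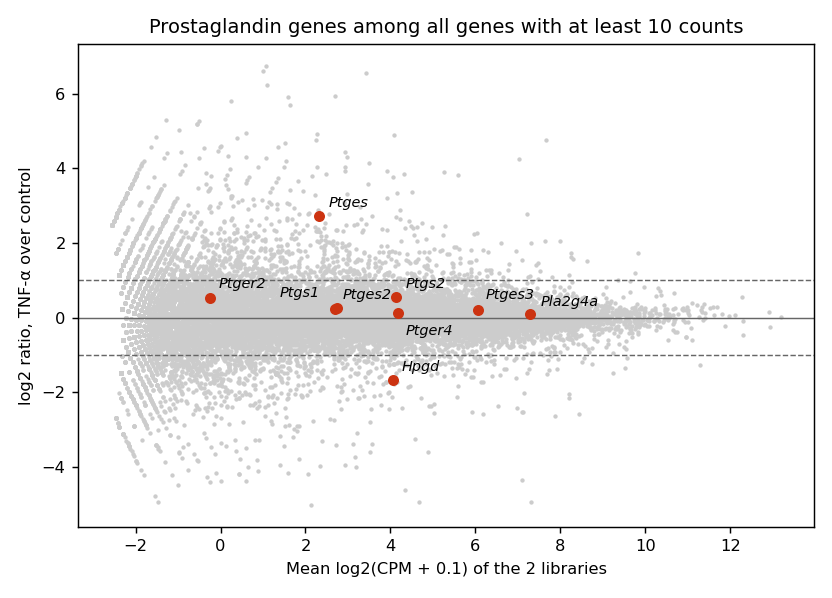
Each point is a gene with at least 10 counts, by its mean log2(CPM + 0.1) over the 2 libraries (x axis) and its log2 ratio of TNF-α to control (y axis), with the 9 prostaglandin genes in red and 2-fold in dashed lines. Ptges and Hpgd lie outside the dashed lines, above and below, and Pla2g4a is the most counted of the 9.

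At the head of the pathway stands Pla2g4a, cytosolic phospholipase A2α, which releases arachidonic acid. It had 6695 counts in the control and 8655 with TNF-α, the most counts of the 9 genes. Its log2 ratio was 0.11 (0.06 to 0.16), a 1.08-fold difference. The gene lies on chromosome 1 (149829618 to 149961290, minus strand), 139 kb from Ptgs2, which lies on the opposite strand.

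The cyclooxygenases differed by less than 2-fold. Ptgs1, the form most tissues express constitutively (chromosome 2, 36230426 to 36252272), had 267 counts in the control and 386 with TNF-α, 5.99 and 7.23 CPM. Its log2 ratio was 0.27 (0.043 to 0.50), and the interval from halved counts, -0.054 to 0.60, held no change. Ptgs2, the form induced by cytokines and growth factors (chromosome 1, 150100031 to 150108227), had 646 and 1126 counts, 14.5 and 21.1 CPM. It was 1.45-fold higher with TNF-α, a log2 ratio of 0.54 (0.40 to 0.68), and 16.8% of all genes tested had a higher ratio. Per kilobase of exon, Ptgs2 transcripts were 2.05 times those of Ptgs1 in the control and 2.47 times with TNF-α. The difference between the log2 ratios of Ptgs2 and Ptgs1 was 0.27, and its interval (-0.0018 to 0.54) held 0.

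Of the 3 PGE2 synthase genes, Ptges alone was past 2-fold. Ptges encodes microsomal PGE2 synthase 1, the synthase that commonly works with COX-2 in inflammation, and lies on chromosome 2 (30889471 to 30929863, minus strand). It had 83 counts in the control library and 674 with TNF-α, 1.86 and 12.6 CPM. The log2 ratio was 2.74 (2.43 to 3.11), and with halved counts its interval ran from 2.29 to 3.26. This ratio ranked 220 from the top among the 20771 genes, and 82 among the 13609 with at least 200 counts. Ptges2 (chromosome 2, 32395896 to 32405772), a second membrane-associated synthase, had 263 and 367 counts and a log2 ratio of 0.22 (-0.011 to 0.45). Ptges3 (chromosome 10, 128058954 to 128077272), the cytosolic synthase also known as the Hsp90 co-chaperone p23, had 2769 and 3837 counts and a log2 ratio of 0.21 (0.14 to 0.28). The log2 ratio of Ptges exceeded that of Ptges2 by 2.54 (2.13 to 2.96) and that of Ptges3 by 2.55 (2.21 to 2.91). The order of Ptges and Ptges2 turned over between the libraries: per kilobase, Ptges was at 0.406 times Ptges2 in the control and 2.36 times with TNF-α.

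Hpgd encodes 15-hydroxyprostaglandin dehydrogenase, the enzyme that inactivates PGE2, and lies on chromosome 8 (56294585 to 56321043). It had 1314 counts in the control and 495 with TNF-α, 29.5 and 9.28 CPM. Its log2 ratio of -1.66 (-1.82 to -1.52) ranked 531 from the bottom of the 20771 genes and 142 from the bottom of those with at least 200 counts. Halved counts gave an interval of -1.89 to -1.46, still beyond 2-fold. Set against the synthase, Hpgd transcripts per kilobase were 37.0 times those of Ptges in the control library and 1.72 times with TNF-α. The ratio of Ptges to Hpgd was thus 21.5 times as large with TNF-α, a log2 difference of 4.43 (4.06 to 4.81). The ratio of Ptgs2 to Hpgd per kilobase went from 0.181 to 0.836.

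Luminal marker genes were lower with TNF-α alongside Hpgd. All 10 genes of a luminal list had log2 ratios below 0, with a median of -0.89. Of these, 3 lay past 2-fold, the hormone receptor genes Prlr (-1.15), Esr1 (-1.48) and Pgr (-1.54). All 10 had at least 200 counts. Of all genes with at least 200 counts, 2.87% were more than 2-fold lower, 4.01% more than 2-fold higher, and 50% had ratios above 0. The summed level of the 10 luminal genes was 3680 CPM in the control and 2611 CPM with TNF-α. The 8 basal markers summed to 9749 and 9564 CPM, with a median log2 ratio of -0.026 and 1 gene past 2-fold, Oxtr at -1.19. In bulk RNA, fewer cells of a type and less RNA per cell cannot be told apart, and the part of luminal cells in the Hpgd value was not tested. Leukocyte markers were sought because macrophages can make PGE2. Of 12 genes, Cd3e and Cpa3 were at 0 in both libraries and Adgre1 had 0 and 2 counts, while Cd14 had 276 and 756. Other macrophage markers were counted in both libraries, Lyz2 at 114 and 109, Csf1r at 92 and 81 and Cd68 at 83 and 75. Itgam had 50 and 40 counts, Mrc1 20 and 17, and Fcgr1 0 and 4. The 12 summed to 14.9 CPM in the control and 21.1 CPM with TNF-α. Without Cd14, left out after the values were seen, the other 11 had 387 and 370 raw counts. After scaling, the log2 ratio of these 11 together was -0.32 (-0.53 to -0.12). The 8 fibroblast markers summed to 517 and 496 CPM (1 past 2-fold, Dcn at 1.39), and the 6 endothelial markers to 8.19 and 7.70 CPM (0 past 2-fold).

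The PGE2 receptors that raise cAMP were Ptger2 (EP2) and Ptger4 (EP4). Ptger4 (chromosome 15, 5206661 to 5244187, minus strand) had 774 counts in the control and 1003 with TNF-α, a log2 ratio of 0.11 (-0.023 to 0.25). Ptger2 (chromosome 14, 44988195 to 45003820) had 27 and 48 counts, the fewest of the 9 genes. Its log2 ratio of 0.54 had an interval of -0.14 to 1.31, so a difference was not detectable at this depth. Ptger4 stood at 15.9 times Ptger2 per kilobase in the control and 11.6 times with TNF-α, and their log2 ratios differed by -0.46 (-1.21 to 0.27), Ptger4 minus Ptger2.

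Compared per kilobase of exon, the order of the 9 genes was almost the same in both libraries. In the control it ran from Ptges3 (28.0 CPM per kb) through Pla2g4a (23.5), Hpgd (17.5), Ptgs2 (3.16), Ptger4 (2.61), Ptgs1 (1.54) and Ptges2 (1.17) to Ptges (0.474) and Ptger2 (0.164). No counting intervals of neighbours in that order overlapped, but they leave out error in the length used. That length sums all exons of a gene and can exceed its transcripts. It was 6648 bases for Ptger4 and 3884 for Ptgs1, whose longest GENCODE M21 transcripts have 3771 and 2867 bases. Orders and ratios between genes per kilobase depend on this length, and other lengths were not tested. With TNF-α the levels were 32.4 for Ptges3, 25.4 for Pla2g4a, 5.51 for Hpgd, 4.61 for Ptgs2, 3.21 for Ptges, 2.83 for Ptger4, 1.86 for Ptgs1, 1.36 for Ptges2 and 0.244 for Ptger2. Ptges thus moved up past Ptges2, Ptgs1 and Ptger4, though the intervals of Ptges (2.98 to 3.47) and Ptger4 (2.66 to 3.01) overlapped. Among all genes tested, the control level of Ptges lay at percentile 25.1 and its TNF-α level at 54.3, while Hpgd went from 85.1 to 65.1.

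**Figure D3:**
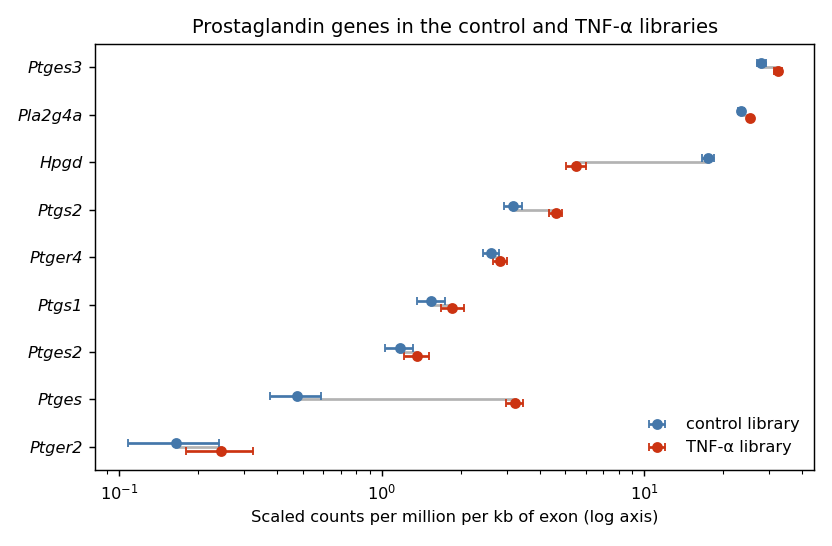
Scaled CPM per kilobase of exon (x axis, log scale) of the 9 genes in the control (blue) and TNF-α (red) libraries, 1 library each, with 95% Poisson intervals for counting error. The widest gaps between the 2 points are those of Ptges (0.474 and 3.21) and Hpgd (17.5 and 5.51).

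Some counts are uncertain because of genes on the opposite strand, as the strand setting of the counting is not given. In the deposited coordinates Ptgs1 shared exon sequence with Gm43621 (79 counts in the control and 81 with TNF-α). Ptger4 shared exon sequence with Ttc33 (1644 and 2074 counts, log2 ratio 0.075) and Gm15937 (26 and 8). For Ptger2, GENCODE M21 has antisense transcripts of Gm17173 that match 249 bases of its transcript, although in the deposited table Gm17173 shares no exon with it. Gm17173, named after its values were seen, had 25 and 71 counts, and reads from the 2 strands there cannot be told apart. A pseudogene, Ptges3-ps, holds 480 bases identical to the Ptges3 transcript. Near Ptgs2, the divergent noncoding gene Ptgs2os had 10 counts in the control and 13 with TNF-α. Ptgs2os2, 50.8 kb beyond the end of Ptgs2, had 1 and 15 counts and a log2 ratio of 2.35. The plain ratio of its scaled counts was 12.5, with an interval from 1.93 to 527.

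Genes around the 9 members were described by 6 lists with 88 genes, of which 75 had at least 10 counts. In all, 9 were more than 2-fold higher and 9 more than 2-fold lower, against the 8.56% and 6.62% of all genes given above. Among the 47 with at least 200 counts these numbers were 1 and 2. The list medians lay between -0.23 and 0.29. The lists were written with earlier results of these data known.

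Among terminal synthases for other prostanoids, 2 of 10 genes were more than 2-fold higher and 3 more than 2-fold lower. Over all genes tested the shares were 8.56% and 6.62%. Hpgds, which makes prostaglandin D2, was the lowest and the sole one of the 5 with at least 200 counts. It had 1188 counts in the control and 430 with TNF-α, a log2 ratio of -1.72 (-1.89 to -1.57), beside -1.66 for Hpgd. Ptgis, prostacyclin synthase, was the highest, with 3 and 29 counts and a log2 ratio of 2.43. The plain ratio of its scaled counts was 8.07, with an interval from 2.50 to 41.4.

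Most genes tested lay within 2-fold, as 8.56% were more than 2-fold higher and 6.62% more than 2-fold lower. So did 11 of 11 transport and breakdown genes other than Hpgd, with a median of 0.12. Slco2a1, the prostaglandin uptake transporter that delivers PGE2 to Hpgd, was the highest, with 5655 counts in the control and 9959 with TNF-α, a log2 ratio of 0.56 (0.51 to 0.60). The lowest was Ptgr1, a reductase that acts after Hpgd, with 2569 and 2026 counts and a log2 ratio of -0.60 (-0.69 to -0.52). The other reductases of the list that act after Hpgd, named after their values were seen, lay closer to no change, Ptgr2 at -0.18 (3355 and 3538 counts) and Zadh2 at -0.052 (608 and 702 counts).

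Of 21 further phospholipase A2 genes 14 reached 10 counts, 1 more than 2-fold higher and 2 more than 2-fold lower, with a median of -0.23. Over all genes tested, 8.56% were more than 2-fold higher and 6.62% more than 2-fold lower. Both extremes of the list were secreted enzymes with few counts. Pla2g5 had 0 counts in the control and 10 with TNF-α, at least 2.78-fold higher when the control library is set to the floor of 3 counts. Its counting interval reached lower, to a log2 ratio of 0.90, and with halved counts to -0.39, so that it held no change. Pla2g2f had 16 and 2 counts and a log2 ratio of -2.35. The plain ratio of its scaled counts was 0.104, with an interval from 0.0116 to 0.444. Placing Pla2g5 at its bound left the list median at -0.23.

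Of 8 genes of the list of other prostanoid receptors 6 reached 10 counts, with a median of 0.29, and the 2 past 2-fold had under 20 counts each. Ptgdr, the prostaglandin D2 receptor DP1, was the highest with 4 counts in the control and 14 with TNF-α (log2 ratio 1.22, interval -0.12 to 3.61). Ptger3, the receptor EP3, was the lowest with 8 and 2 counts (interval of the ratio 0.0216 to 1.05). Both intervals held no change. Ptger1, the receptor EP1, lay between them at -0.60 with 2616 and 2066 counts, and it is named here because it completes the PGE2 receptors.

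Among genes with at least 200 counts, 4.01% were more than 2-fold higher and 2.87% more than 2-fold lower, so most lay within 2-fold. Downstream of EP2 and EP4, 18 of 20 genes of cAMP and CREB signalling did so too, with a median of -0.049. At least 200 counts were reached by 19 of these 20 genes. Pde4b, a phosphodiesterase that breaks down cAMP, was the highest, with 3079 counts in the control and 7774 with TNF-α, a log2 ratio of 1.08 (1.02 to 1.14), and with halved counts its interval of 0.99 to 1.16 held 2-fold. Nr4a1, an immediate early nuclear receptor gene that cAMP can induce, was the lowest, with 5630 and 2048 counts, a log2 ratio of -1.72 (-1.79 to -1.65). These are transcript amounts, and neither prostaglandins nor cAMP were measured in these files.

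**Figure D4:**
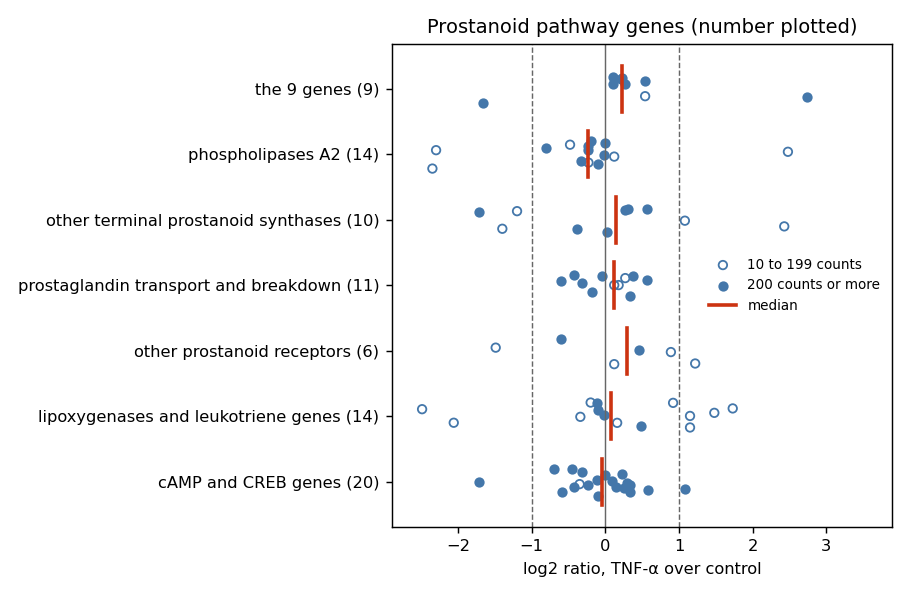
log2 ratio of TNF-α to control (x axis) for each gene with at least 10 counts in the 9 members and 6 pathway lists, filled where both libraries together held 200 counts or more, with list medians in red and 2-fold in dashed lines. Filled points beyond the dashed lines are Ptges, Hpgd, Hpgds, Pde4b and Nr4a1.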

How the data were processed

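RNA-seq was analysed for 2 mouse libraries, a control and a TNF-α library. The authors deposited 1 table of raw read counts per gene with exon coordinates, strand and summed exon length. The submitters' processing notes name GRCm38 and mm10. The aligner, counting tool, annotation release and strand setting are not given in the sources used here. The labels name an RNeasy kit and a SMARTer library kit, and the paper names RNAiso Plus.

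Counts were scaled by TMM (edgeR 4.0.16, R 4.3.3) on genes with at least 10 counts over both libraries. log2 ratios of CPM (counts per 1e6 scaled counts) used a prior count of 2. Plain ratios of scaled counts and the counting intervals used no prior count. A gene was called when it lay past 2-fold. A quasi-likelihood fit needs replicates, so no test between conditions was run and no p-value is given. Exact Poisson and Clopper-Pearson 95% intervals cover counting error only. The calculation of ratios and calls was checked on simulated counts with known changes and counting error alone. That check holds no variation between cultures or animals, so it cannot speak to it. Alternatives were other scalings, filters, prior counts and folds, halved or thinned counts, removal of rRNA and mitochondrial genes, and a lowess correction for length and GC content.

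The members and lists were chosen with earlier results of these data known. Named genes are the 9 members, the highest and lowest gene of each pathway list, list genes past 2-fold with at least 200 counts, and genes overlapping a member's exons or within 100 kb of Ptgs2. Promoter windows came from RefSeq (GRCm38.p6). Copies of the members' transcripts were sought with blastn 2.17.0 in GENCODE M21. Python 3.11.15, scipy 1.17.1, statsmodels 0.14.6 and DESeq2 1.42.0 were also used. Protein identity between members, planned at first, was not analysed here.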

Additional observations from a re-analysis of the deposited data

How the results depend on the processing

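No paired analysis was possible because there was a single control and a single TNF-α library, which also left no replicate to leave out. Ptges remained the 1 member more than 2-fold higher and Hpgd the 1 member more than 2-fold lower under the 15 alternatives run for these counts, which include thresholds of 1.5-fold and 3-fold, where Ptges ran from 2.70 to 2.78 and Hpgd from -1.76 to -1.64. Of 107 alternative values of the 9 genes, 106 stayed inside the counting interval. After the correction for length and GC content (span 0.3) Ptges3 moved from 0.21 to 0.14, Slco2a1 from 0.56 to 0.64 and Nr4a1 from -1.72 to -1.64, each outside its counting interval, and the cause was not tested. TMM factors from all genes were added after seeing the data.

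The counts over all genes (1777 higher, 1375 lower) became 836 and 658 with at least 1 CPM in a library, 2679 and 2996 without a filter, 3210 and 2846 at 1.5-fold, 875 and 587 at 3-fold, and 1158 higher where the halved interval had to exclude no change. Lists of few counts moved too. With at least 1 CPM the terminal synthases had 0 genes higher and a median of -0.19 in place of 0.14, the phospholipases 0 higher and 1 lower, the receptors 0 and 0, and the lipoxygenases 0 higher. Without a filter 4 phospholipases and 1 transport and breakdown gene were lower. A prior count of 5 left 1 terminal synthase, 0 receptors and 2 lipoxygenase genes higher, and 0.5 gave 2 receptors higher. Thinned counts left 0 phospholipases higher and 0 receptors lower. Ptger2 had 75 counts in all and was not tested at 1 CPM, and neither the spread between cultures nor between animals was measured.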

Other observations

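The lipoxygenase branch of arachidonic acid metabolism, which makes leukotrienes and related lipids, gave mixed values. Of its 16 genes 14 had at least 10 counts, 4 more than 2-fold higher and 2 more than 2-fold lower, with a median log2 ratio of 0.07. Of all genes with at least 10 counts, 8.56% were more than 2-fold higher and 6.62% more than 2-fold lower. All 6 lipoxygenase branch genes past 2-fold had under 200 counts. Alox5ap, the partner protein of 5-lipoxygenase, was the highest, with 4 counts in the control and 21 with TNF-α, a log2 ratio of 1.73 (95% counting interval 0.57 to 4.14), and with halved counts its interval of -0.08 to 5.35 held no change. Alox5 itself had 6 counts in each library. Aloxe3, an epidermal lipoxygenase of the skin barrier, was the lowest, with 74 and 14 counts, a log2 ratio of -2.49 (-3.60 to -1.83). Alox15, named after its values were seen, had 138 and 38 counts, a log2 ratio of -2.06.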
